A study of Mus musculus with 8 samples.

Results

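The thioredoxin and peroxiredoxin system was followed through 10 genes in kidney RNA from NEKO mice and their controls: the thioredoxins Txn1 and Txn2, the thioredoxin reductases Txnrd1 and Txnrd2, the peroxiredoxins Prdx1, Prdx2, Prdx3 and Prdx6, the sulfiredoxin Srxn1 and the thioredoxin inhibitor Txnip. They were listed by name, with earlier results of these data known. The array carried 18 probes for these 10 genes, of 41174 probes and 18217 named genes in all, and every one of the 18 was well above background on all 8 arrays, so all 10 genes were tested.

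Thioredoxins are small proteins whose paired cysteines reduce disulfides in other proteins, and thioredoxin reductases, which are selenoproteins, recharge them with electrons from NADPH. Peroxiredoxins use a cysteine to destroy hydrogen peroxide, and most of them are then reduced by thioredoxin. A peroxiredoxin cysteine that is oxidised too far is repaired by sulfiredoxin, while Txnip binds reduced thioredoxin and blocks it. Several genes of the system are textbook targets of Nrf2, the transcription factor that Keap1 marks for degradation, which is the reason to read them in a mouse without Keap1.

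The NEKO mice (Keap1-/-::Nrf2Flox/Flox::K5-Cre) lacked Keap1 in the whole body and carried floxed Nrf2 together with a Cre driven by the Keratin5 promoter, which acts in squamous epithelium. Controls were Keap1+/-::Nrf2Flox/Flox littermates, 3 with K5-Cre (K1Cre) and 1 without it (K1), so that heterozygous loss of Keap1 and the floxed Nrf2 alleles were present in all controls. All 8 mice were 8 weeks old and of a mixed 129Sv/J and C57BL/6J background, and each group held 2 females and 2 males. The controls are called control 1 (K1, female), 4, 7 (K1Cre, males) and 8 (K1Cre, female), and the NEKO mice NEKO 2 and 3 (females) and NEKO 5 and 6 (males), after the numbers in the labels.

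Total kidney RNA was labelled with Cy3 and read on 1-colour Agilent arrays, 1 array per mouse. Every level below is the processed signal on a log2 scale, where 0 is the 75th percentile of that mouse's array, so a difference of 1 is a 2-fold change. Groups were compared with limma in a model that included sex. A change is said to be called where its Benjamini-Hochberg adjusted p, over the 19594 genes and unnamed transcripts tested, was under 0.05. The arrays had 61.8% to 65.7% of their probes well above background and none saturated. All females had been hybridised to the same slide and all males to another, which leaves sex and slide inseparable. Precision is limited by having 8 arrays. In whole-kidney RNA, a change in the share of a cell type and a change in the RNA per cell cannot be told apart.

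Because Nrf2 acts through antioxidant response elements, the 250 bases upstream of each RefSeq start site (GRCm38.p6) were searched on both strands for the core of that element, TGACNNNGC, and for the E-box CACGTG, a motif bound by regulators of Txnip. Windows were given for 9 of the 10 genes, with 3 windows for Txnrd1, and Prdx6 had none. The core TGACNNNGC was held by 10.2% of 32851 such windows of all genes, and among the members by the window of Prdx1 and 1 of the 3 windows of Txnrd1. No member window held the exact letters CACGTG, against 6.02% of all windows. Forms of the E-box that differ from these letters were not searched, so their absence is not shown. The motif TGANTCA, bound by AP-1 and NF-E2 factors, was added after the windows had been read. It lay in 6.75% of all windows, at 2 places upstream of Srxn1 (starting 102 and 45 bases before the start site) and at 2 upstream of Prdx1 (237 and 131 bases before it). The second of these in Prdx1 overlapped its TGACNNNGC match, which began 133 bases before the start on the opposite strand. In Txnrd1 the match began 92 bases before the start site, also on the opposite strand. The TGANTCA match 45 bases before the Srxn1 start is followed by gc. It reads TGAGTCAgc and differs from TGACNNNGC only by a G in place of the C. This near match was noticed after the windows had been read and does not count as a match to TGACNNNGC. Near matches were not counted in other windows, so how common they are is not given. The 3 windows that held a match to TGACNNNGC or TGANTCA are printed 5′ to 3′ on the strand of the gene, with the matches in capitals. The other member windows, among them the rest of those of Txnrd1, held neither motif and are not printed.
Srxn1, chr2:152105274-152105523, + strand: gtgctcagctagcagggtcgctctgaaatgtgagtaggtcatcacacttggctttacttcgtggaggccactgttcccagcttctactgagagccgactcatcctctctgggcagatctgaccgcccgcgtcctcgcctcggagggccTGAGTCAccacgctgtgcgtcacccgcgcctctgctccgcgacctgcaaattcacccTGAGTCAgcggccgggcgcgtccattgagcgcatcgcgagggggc
Txnrd1, chr10:82858956-82859205, + strand: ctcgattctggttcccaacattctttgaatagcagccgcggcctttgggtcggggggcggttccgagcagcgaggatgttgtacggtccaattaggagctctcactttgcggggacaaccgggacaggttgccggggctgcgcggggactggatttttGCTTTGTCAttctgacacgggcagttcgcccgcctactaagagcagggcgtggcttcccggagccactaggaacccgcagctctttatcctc
Prdx1, chr4:116685349-116685598, + strand: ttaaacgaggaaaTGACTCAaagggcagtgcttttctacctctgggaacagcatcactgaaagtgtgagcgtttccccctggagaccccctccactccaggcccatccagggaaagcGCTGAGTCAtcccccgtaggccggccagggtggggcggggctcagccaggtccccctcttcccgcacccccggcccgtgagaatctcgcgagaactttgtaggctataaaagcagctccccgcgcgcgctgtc
These matches describe the letters of the windows, and binding was not measured here.

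The deleted gene and a reference target of Nrf2 were read first. Keap1, the adaptor that brings Nrf2 to its ubiquitin ligase, measured 1.80, 1.92, 1.87 and 1.77 in controls 1, 4, 7 and 8 and 0.45, 0.06, 0.14 and 0.16 in NEKO 2, 3, 5 and 6. Every NEKO mouse was therefore below every control (log2 change -1.63, SE 0.10, adjusted p = 0.0046 from limma). The Keap1 probe stayed well above background on all 4 NEKO arrays, and its place relative to the deleted part of the gene is not given in the sources used here. Nqo1, a quinone reductase long used as a readout of Nrf2, measured 2.45, 1.24, 2.35 and 2.46 in the controls and 3.89, 4.41, 5.25 and 5.45 in the NEKO mice, in the same order of animals. The Nqo1 levels did not overlap, but the log2 change of 2.62 (SE 0.43) had an adjusted p of 0.0651 from limma and was not called.

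Of the 10 genes, Txnrd1 was called higher in NEKO kidneys and none was called lower, against 0.097% of all features called higher and 0.128% called lower. In 4 of the 10 (Txnrd1, Srxn1, Prdx6 and Prdx3) every NEKO mouse lay above every control, a pattern found in 3.88% of all features, and in the other 6 the groups overlapped. At an unadjusted p under 0.05 from limma, 5 members were higher (Txnrd1, Srxn1, Prdx6, Prdx1 and Txn1), against 7.37% of all features, and 0 were lower, against 10.6%. The methods' t-test gave 4 higher, against 4.81% of all features, and 0 lower, against 6.48%, before adjustment, and called none of the 10 after it. The median log2 change of the 10 was 0.19, beside -0.03 over all features tested. The changes ran from -0.20 for Txnip to 1.47 for Srxn1.

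**Figure D1:**
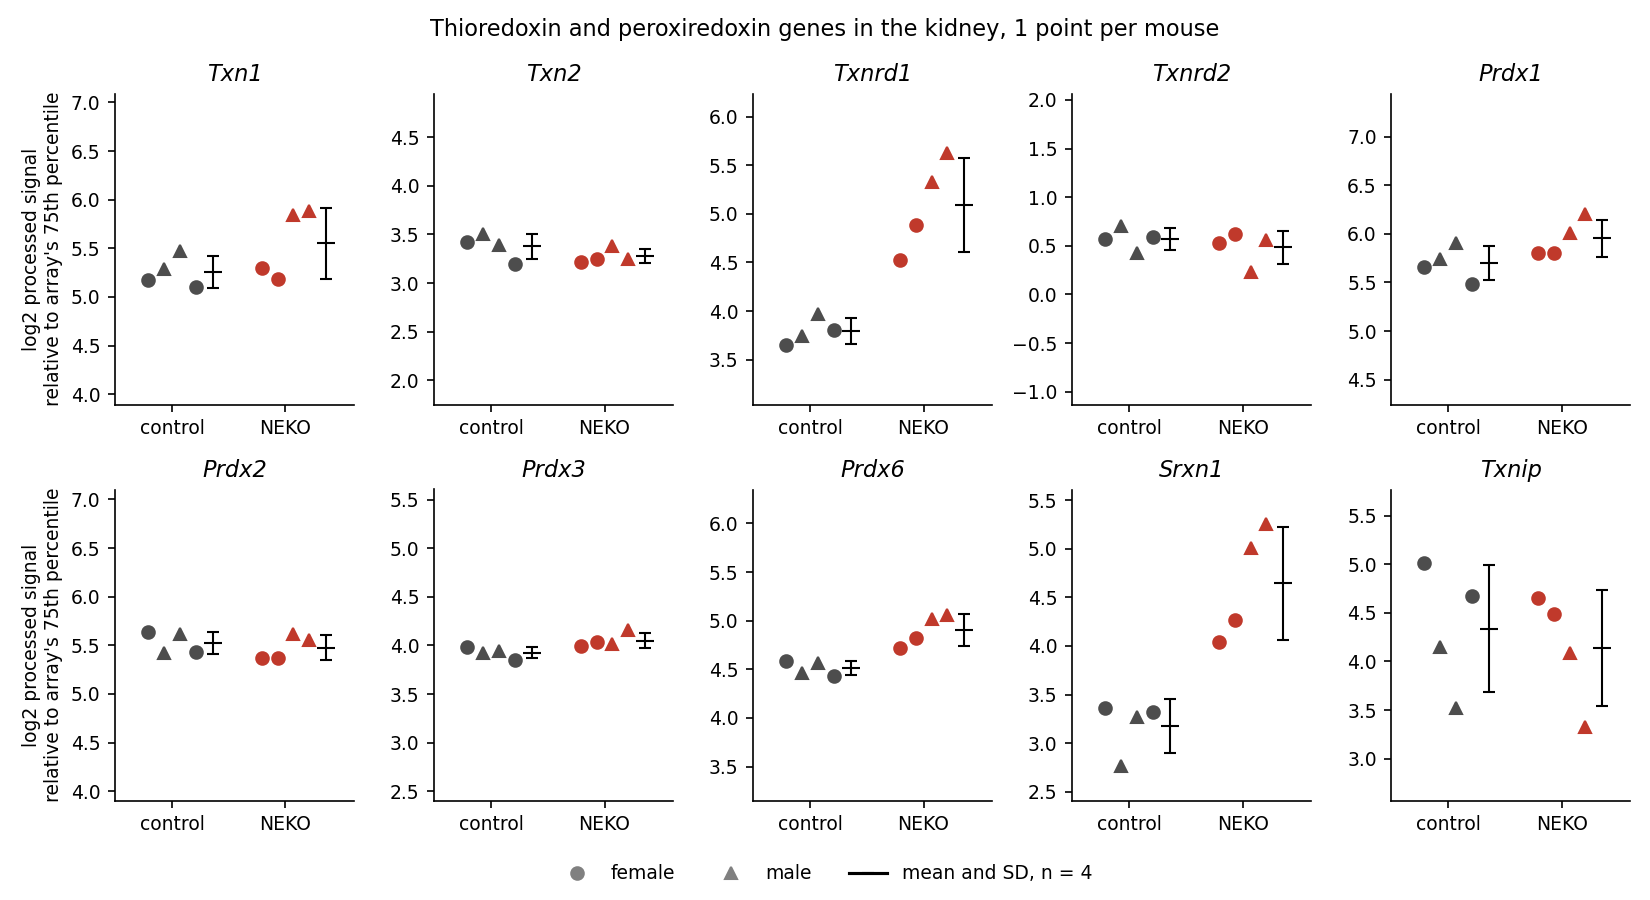
Level of each of the 10 genes in every mouse (y axis, processed signal on a log2 scale with the array's 75th percentile at 0, the same span in each panel), with controls in grey, NEKO mice in red, females as circles and males as triangles. Black bars give the mean and SD of 4 mice. NEKO and control mice separate widely in Txnrd1 and Srxn1, narrowly in Prdx6 and Prdx3, and overlap in the other 6 genes, and in Txnip the females lie above the males.

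Txnrd1, the cytosolic reductase, measured 3.65, 3.75, 3.97 and 3.80 in controls 1, 4, 7 and 8 and 4.53, 4.88, 5.33 and 5.62 in NEKO 2, 3, 5 and 6. The controls lay within 0.32 of each other, and the lowest NEKO mouse was 0.56 above the highest control. The mean was 3.79 ± 0.13 (SD, n = 4) in controls and 5.09 ± 0.48 (SD, n = 4) in NEKO mice, a 2.46-fold change (95% confidence interval 1.87 to 3.23, log2 change 1.30, SE 0.17, adjusted p = 0.0486 from limma). The call stood close to its threshold: with 1 mouse left out it held only without NEKO 2, and the adjusted p from limma ran from 0.0376 to 0.155 over the 8 such fits, while the log2 change stayed between 1.17 and 1.43. Txnrd1 was measured by 1 probe.

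Txnrd2, the mitochondrial reductase, measured 0.57, 0.70, 0.43 and 0.59 in the controls and 0.52, 0.62, 0.23 and 0.56 in the NEKO mice. The groups overlapped, and the interval of the fold change, 0.79 to 1.12, did not reach the interval of Txnrd1 (log2 change -0.09, SE 0.11, adjusted p = 0.685 from limma). Its second probe gave a log2 change of -0.06.

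Srxn1, which reduces overoxidised peroxiredoxins, measured 3.36, 2.76, 3.27 and 3.32 in controls 1, 4, 7 and 8 and 4.04, 4.27, 5.01 and 5.26 in NEKO 2, 3, 5 and 6. No control reached any NEKO mouse, and control 4 stood apart below the other controls, as it did in Nqo1. The means were 3.18 ± 0.28 (SD, n = 4) and 4.64 ± 0.58 (SD, n = 4), the largest change among the members at 2.76-fold (95% confidence interval 1.75 to 4.35, log2 change 1.47, SE 0.28). With an adjusted p of 0.0814 from limma it was not called. The exact two-sided permutation test gave an unadjusted 0.0286, the smallest p that 4 against 4 mice allow. Any gene whose groups do not overlap gets this p, so it restates the lack of overlap. Of all features, 3.88% had every NEKO mouse above every control and 5.39% below. The other 2 probes of Srxn1 gave log2 changes of 1.58 and 1.52, also with no overlap between groups. The change was 1.23 without control 4.

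Txn1, the cytosolic thioredoxin, measured 5.17, 5.29, 5.47 and 5.10 in controls 1, 4, 7 and 8 and 5.30, 5.18, 5.84 and 5.88 in NEKO 2, 3, 5 and 6. Both NEKO males lay above all controls and both NEKO females among them. The log2 change of 0.29 (SE 0.10) was not called (adjusted p = 0.212 from limma). Txn2, its mitochondrial counterpart, measured 3.42, 3.50, 3.39 and 3.20 in the controls and 3.22, 3.25, 3.38 and 3.25 in the NEKO mice. All 4 NEKO levels lay within the range of the controls (log2 change -0.10, SE 0.08, adjusted p = 0.525 from limma).

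Prdx6, a peroxiredoxin with a single active cysteine that also has phospholipase activity, measured 4.59, 4.46, 4.56 and 4.44 in controls 1, 4, 7 and 8 and 4.71, 4.82, 5.02 and 5.06 in NEKO 2, 3, 5 and 6. The groups did not overlap, and the change was 1.31-fold (95% confidence interval 1.14 to 1.52, log2 change 0.39, SE 0.09, adjusted p = 0.115 from limma, exact permutation p = 0.0286), so Prdx6 was not called. Its other 2 probes gave log2 changes of 0.50 and 0.49, and in the dimmer of them the groups overlapped. Prdx1, the abundant cytosolic peroxiredoxin, measured 5.66, 5.75, 5.90 and 5.48 in the controls and 5.80, 5.80, 6.00 and 6.20 in the NEKO mice. Here control 7 lay above both NEKO females, and the log2 change of 0.25 (SE 0.08) was not called (adjusted p = 0.201 from limma).

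Prdx3, the peroxiredoxin of mitochondria, measured 3.98, 3.93, 3.95 and 3.85 in the controls and 3.99, 4.04, 4.01 and 4.16 in the NEKO mice. The lowest NEKO mouse exceeded the highest control by only 0.01, and the log2 change of 0.12 (SE 0.07) was not called (adjusted p = 0.390 from limma). Prdx2, a cytosolic peroxiredoxin that is very abundant in red cells, measured 5.63, 5.42, 5.61 and 5.43 in the controls and 5.37, 5.37, 5.61 and 5.55 in the NEKO mice. The groups overlapped (log2 change -0.05, SE 0.09, adjusted p = 0.804 from limma), and its other 2 probes gave 0.03 and 0.05, so no direction can be given. The summed level of 4 red-cell markers (Hbb-bt, Hba-a1, Alas2 and Slc25a37), on a linear scale with the 75th percentile of the array as 1, ran from 74.3 to 393 in controls and from 182 to 723 in NEKO mice. None of the 4 was called, and their part in the Prdx2 level was not tested.

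**Figure D2:**
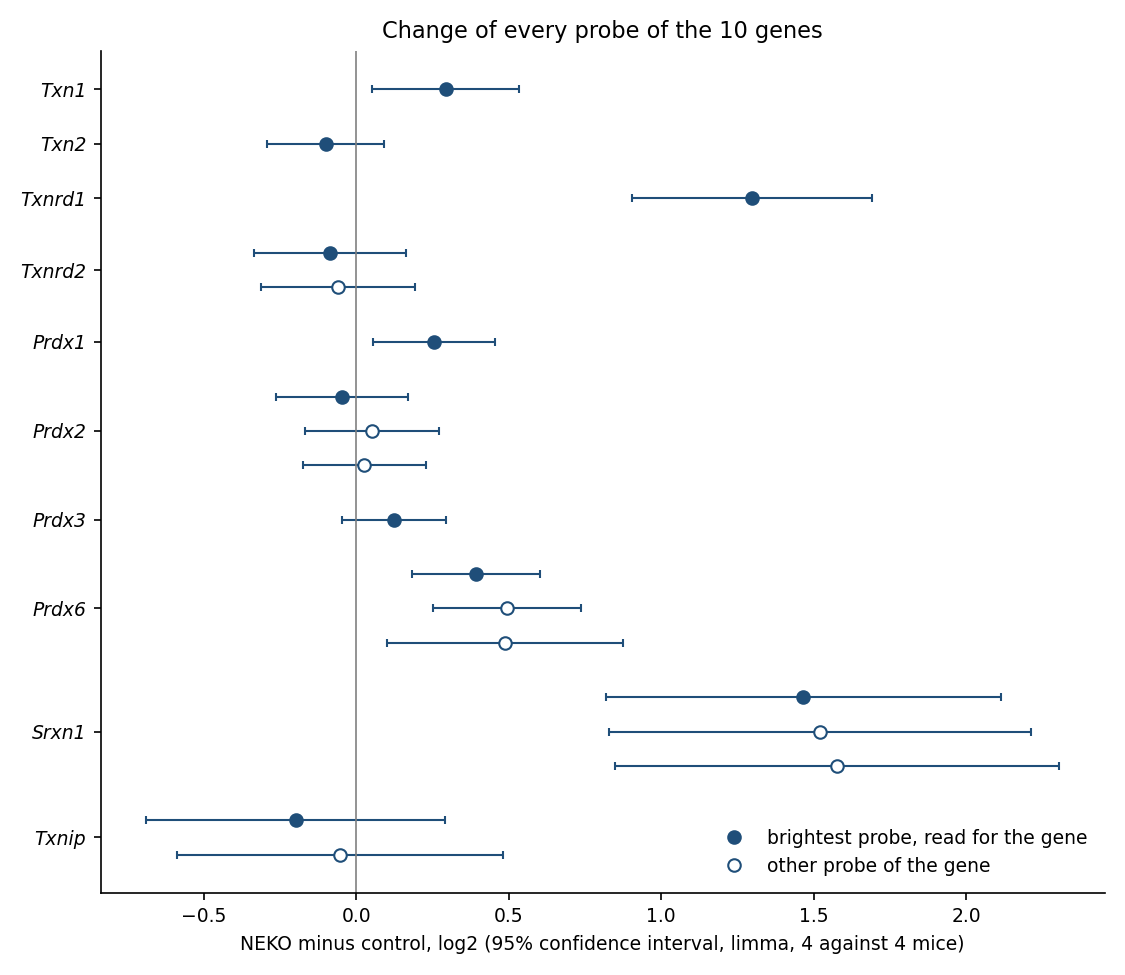
Log2 change, NEKO minus control, of each of the 18 probes of the 10 genes (x axis), with bars for the 95% confidence interval of limma over 4 against 4 mice. Filled points are the brightest probe of a gene, from which the gene was read, and open points the other probes. The probe of Txnrd1 and all 3 probes of Srxn1 lie near 1.3 to 1.6, while the probes of Txnrd2, Txn2, Prdx2, Prdx3 and Txnip have intervals that include 0.

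Txnip, which binds thioredoxin and is strongly induced by glucose, measured 5.01, 4.15, 3.52 and 4.67 in controls 1, 4, 7 and 8 and 4.66, 4.49, 4.08 and 3.32 in NEKO 2, 3, 5 and 6. The groups overlapped, and the log2 change of -0.20 (SE 0.21, 95% confidence interval -0.69 to 0.30) was not called (adjusted p = 0.631 from limma). Its spread within a group, an SD of 0.65 in controls and 0.59 in NEKO mice, was the widest of the 10 genes. All 4 females, between 4.49 and 5.01, lay above all 4 males, between 3.32 and 4.15. Of all features, 12% separated the sexes in one direction or the other, and 1 of the 10 members did, no more than that share. The male minus female log2 difference of Txnip was -0.94 (SE 0.21, adjusted p = 0.0824 from limma). Txn1 nearly separated the sexes as well, with females between 5.10 and 5.30 and males between 5.29 and 5.88. Its male minus female difference was 0.43 (SE 0.10, adjusted p = 0.0870 from limma). Neither was called, as was true of all 10 members, against 0.786% of all features called.

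Whether related genes changed unequally was read as the within-array difference of 4 pairs, 3 of a cytosolic form with a mitochondrial one and 1 of the cytosolic Prdx1 and Prdx2, tested by exact two-sided permutation and adjusted over the 4. Txnrd1 minus Txnrd2 was 3.22 ± 0.22 (SD, n = 4) in controls and 4.61 ± 0.56 (SD, n = 4) in NEKO mice, a shift of 1.38 on the log2 scale with no overlap. The exact permutation p was 0.0286, the smallest possible, and 0.0571 after adjustment, so the shift does not pass an adjusted 0.05. After adjustment over 4 pairs, a pair at that smallest p cannot pass on its own. The adjusted test therefore cannot decide whether a single pair shifted. Prdx1 minus Prdx2 shifted by 0.30 with no overlap and with the same pair of p-values from the exact permutation test. With the mean of the kept probes of each gene, the exact permutation p of that pair was 0.143 (adjusted 0.190). Txn1 minus Txn2 shifted by 0.39 (exact permutation p = 0.0857, adjusted 0.114) and Prdx1 minus Prdx3 by 0.13 (exact permutation p = 0.257, adjusted 0.257), both with overlap.

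Within each sex, 2 NEKO mice were set against 2 controls. The log2 change of Srxn1 was 0.82 in females and 2.12 in males (1.86 without control 4, left out after its value was seen). That of Txnrd1 was 0.98 in females and 1.62 in males, and that of Nqo1 1.69 and 3.55. The male value of Nqo1 includes control 4 at 1.24, against 2.35 in control 7, the other male control. For Nqo1 the limma interaction of sex and genotype had an unadjusted p of 0.0109 and an adjusted p of 0.261. The signed log2 change had the higher value in males for 8 of the 10 members. The share of all features with this pattern is not given here. The exceptions, Txnrd2 and Txn2, were slightly more negative in males. Of the 8, Txnip was below 0 in both sexes, and Prdx2 below 0 in females only. The difference in Srxn1 was 1.30 (SE 0.28, unadjusted p = 0.0031, adjusted p = 0.157, limma interaction of sex and genotype), and in Txnrd1 0.64 (SE 0.25, unadjusted p = 0.0416, adjusted p = 0.444, limma). No member passed the adjusted threshold, which 0.0153% of all features did, and 2 of 10 passed at an unadjusted p under 0.05, against 10.5% of all features. A difference between the sexes was thus not shown for any of the 10 genes, and it could not have been told apart from one between slides.

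**Figure D3:**
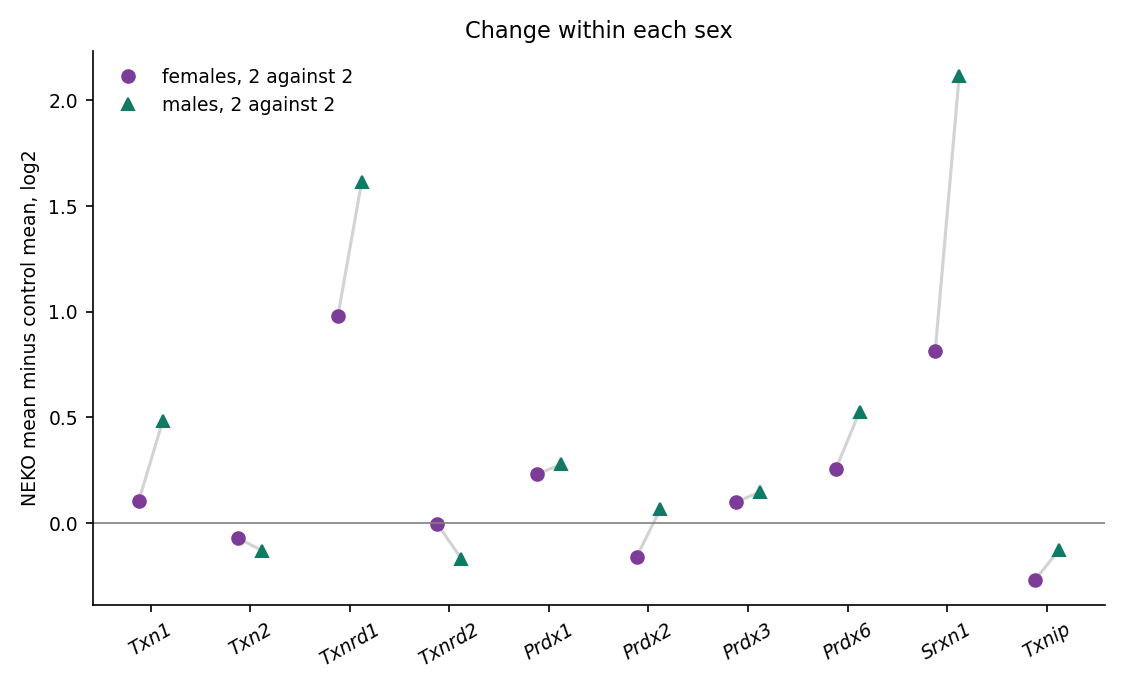
Log2 change, NEKO mean minus control mean, in females (purple circles, 2 against 2 mice) and in males (green triangles, 2 against 2 mice) for each of the 10 genes, with a grey line joining the sexes. The male value is the higher one in Srxn1 (2.12 against 0.82), Txnrd1 (1.62 against 0.98), Txn1 (0.48 against 0.10) and Prdx6 (0.53 against 0.25), and no difference passed the adjusted test.

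How the 3 members with the largest changes stood under other ways of processing the same arrays was set out for each alternative. Txnrd1 lost its call in 11 of 21 alternatives, and Srxn1 gained one in 2 of 21 and Prdx6 in 1 of 21, of which 1 each came from a comparison without adjustment. The log2 changes stayed between 1.17 and 1.43 for Txnrd1, between 1.23 and 1.64 for Srxn1 and between 0.34 and 0.46 for Prdx6. Several alternatives, such as no sex term or the methods' t-test, altered the p but left the log2 change as it was.

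**Figure D4:**
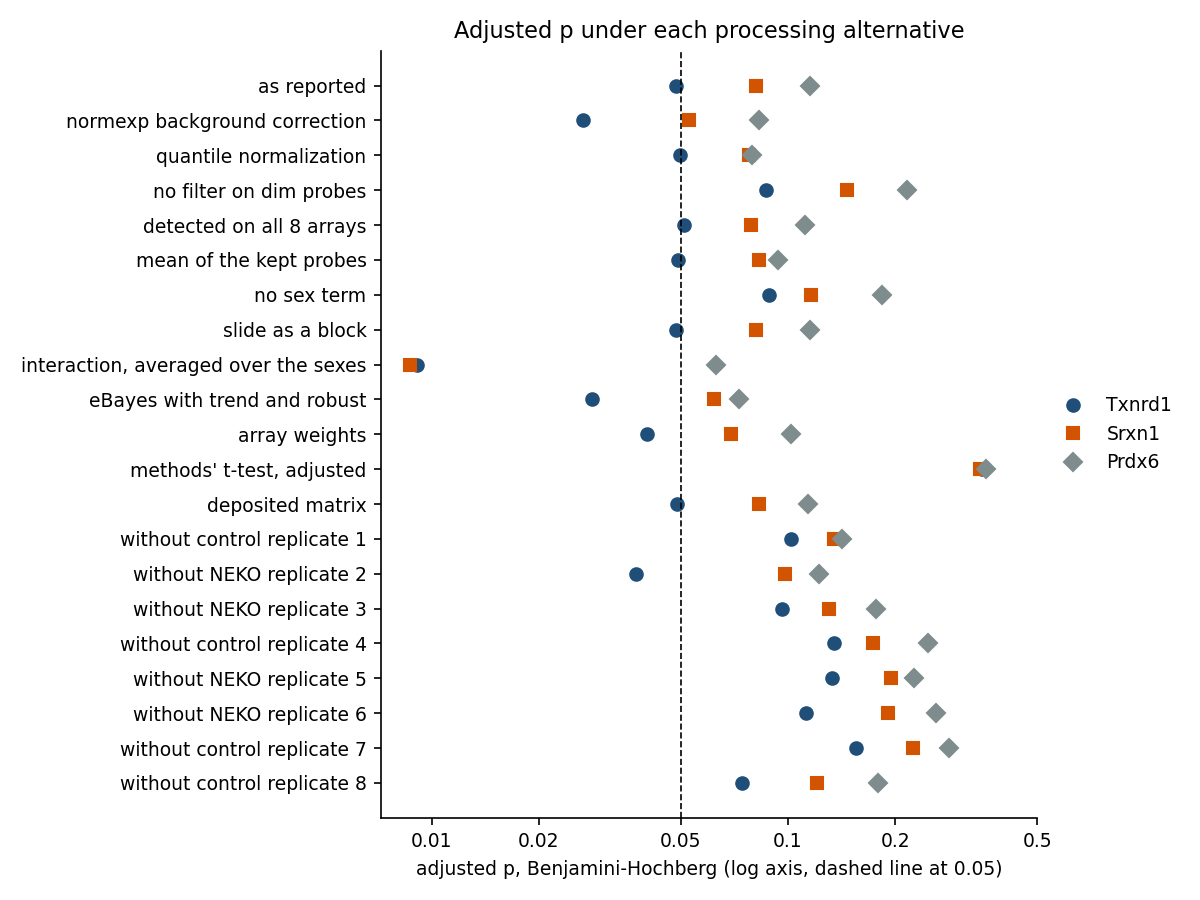
Adjusted p (x axis, log scale) of Txnrd1 (blue circles), Srxn1 (orange squares) and Prdx6 (grey diamonds) as reported and under each alternative way of processing the data (rows), with the dashed line at 0.05. Points of Txnrd1 lie on both sides of the line, from 0.0091 to 0.350, Srxn1 passes it only in the model with an interaction (0.0087), and Prdx6 passes it in no row.

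The rest of thiol redox biology was read from a list of 60 further genes, of which 59 were on the array and 55 were tested. None was called in either direction by limma. At an unadjusted p under 0.05 from limma there were 7 of 55 higher and 3 of 55 lower, beside 7.37% and 10.6% of all features. By the methods' t-test there were 6 higher and 1 lower, beside 4.81% and 6.48% of all features. The median log2 change of the 55 was 0.00, beside -0.03 over all features tested. In 4 genes every NEKO mouse was above every control, against 3.88% of all features. In 1 every NEKO mouse was below every control, against 5.39% of all features.

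The largest log2 change of this list was that of Gsr, the glutathione reductase, which does for glutathione what thioredoxin reductase does for thioredoxin. It measured 2.17, 2.54, 2.70 and 2.88 in controls 1, 4, 7 and 8 and 2.97, 3.55, 4.16 and 4.39 in NEKO 2, 3, 5 and 6. The groups were separated by 0.09 (log2 change 1.20, SE 0.26, adjusted p = 0.109 from limma). The methionine sulfoxide reductases, which depend on thioredoxin, gave log2 changes of 0.57 for Msrb3 (adjusted p = 0.161) and 0.37 for Msra (adjusted p = 0.115), both without overlap, and of -0.09 for Msrb1 and -0.07 for Msrb2 with overlap (limma). Prdx6b, a close copy of Prdx6 whose signal may include Prdx6 transcripts, had a log2 change of 0.49 (adjusted p = 0.103 from limma). The remaining peroxiredoxins, Prdx4 of the endoplasmic reticulum and Prdx5, gave 0.14 and -0.25 with overlap.

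The list fell into 4 groups. Among 31 tested genes with a thioredoxin fold and their partners, 4 had NEKO mice above all controls, against 3.88% of all features. The median log2 change of the 31 was 0.09. Over all features, the groups overlapped in 17777 of 19594, so overlap throughout a short list is common. Among 6 genes of thioredoxin clients, such as the ribonucleotide reductase subunit Rrm1 and the kinase Map3k5 (ASK1), all overlapped (median -0.07). Among 10 genes linked to the synthesis of selenoproteins, the class to which the thioredoxin reductases belong, all overlapped as well (median -0.05, range -0.20 to 0.17). Among 8 regulators and relatives of Txnip the median was -0.21. Here Arrdc3, an alpha-arrestin of the Txnip family, measured 1.44, 1.65, 1.68 and 1.42 in controls 1, 4, 7 and 8 and 1.20, 1.10, 1.15 and 1.02 in NEKO 2, 3, 5 and 6. Every NEKO mouse was below every control, a pattern found in 5.39% of all features. The log2 change of Arrdc3 was -0.43 (SE 0.09, adjusted p = 0.0976 from limma), and it was not called.

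**Figure D5:**
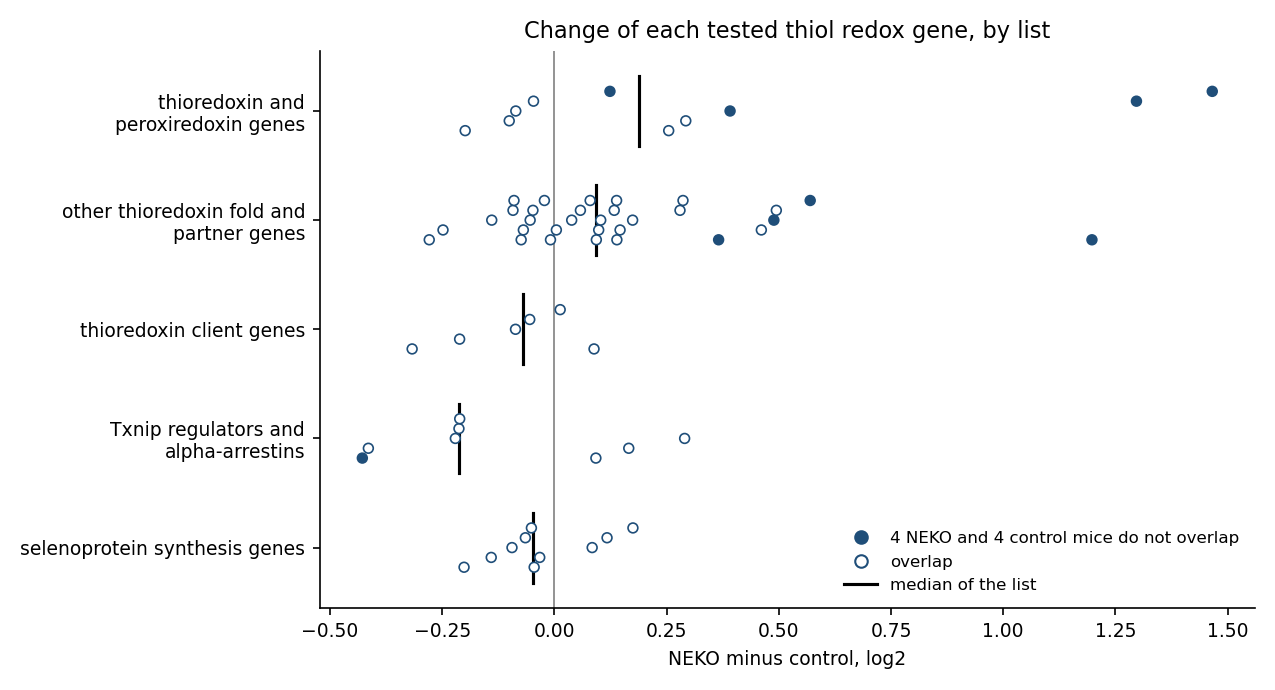
Log2 change, NEKO minus control (x axis), of the 10 members (top row) and of the 55 other tested thiol redox genes in 4 lists (rows). Filled points are genes in which the 4 NEKO and 4 control mice do not overlap, open points those in which they do, and black lines the median of each list. Srxn1 (1.47), Txnrd1 (1.30) and Gsr (1.20) stand apart on the right, and Arrdc3 (-0.43) is the filled point on the left.

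The genes whose levels were most like those of a member were taken over the 8 arrays after the mean of each sex had been subtracted, among 12698 named genes well above background on every array. The correlation includes the difference between the groups, so any gene with a clear NEKO to control step scores high, and it is given as a description. Closest to Srxn1 were Mest (Pearson r = 0.999), Nqo1 (0.995), the catalase gene Cat (0.994) and Pir, which encodes pirin (0.994). Closest to Txnrd1 were the glutathione transferase gene Gstp1 (0.994), Zdhhc17 (0.993), Tmem205 (0.990) and Pir (0.989). Seen from Txnrd1, Srxn1 ranked 24 (r = 0.978) and Prdx6 46 (r = 0.966) among the 12698. Closest to Txnip were 1110006O24Rik (0.985), Lsm14b (0.985), Sox15 (0.980) and Igf2bp1 (0.976), none of which was called between the groups, and the r of Txnip with Txnrd1 was -0.46.

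The labelled tissue was checked against its markers. All 8 proximal tubule markers, Slc34a1 and Lrp2 among them, were well above background on all arrays, and their summed level on the linear scale was 458 to 588 in controls and 521 to 632 in NEKO mice. Their median log2 change was 0.11. Every NEKO mouse lay above every control in Slc13a3 (0.97) and Slc22a8 (0.82) and below in Slc5a2 (-0.43). At an unadjusted p under 0.05 from limma, 3 of the 8 were higher and 1 lower, beside 7.37% and 10.6% of all features. Among other cell types, the median log2 change was -0.90 over 6 intercalated cell markers and 1.33 over 6 urothelial markers, which include Krt5, the gene whose promoter drives Cre here, although in Upk1a (-0.71) every NEKO mouse lay below every control. It was -0.81 over 3 markers of the distal convoluted tubule and 1.64 over 3 neutrophil markers. The neutrophil figure rests on S100a8 and S100a9, since Mpo changed by 0.05 and Ngp, Camp and Elane were not tested. S100a8 was well above background on 1 control and 3 NEKO arrays, so it met the filter of 4 arrays mostly through NEKO mice. The median was -0.01 over 8 macrophage, -0.24 over 4 thick ascending limb, -0.21 over 6 principal cell and 0.22 over 5 podocyte markers. For 6 endothelial and 7 lymphocyte markers it was 0.08 and 0.10, and for 4 red-cell markers 0.76. None of these markers was called by limma. At an unadjusted p under 0.05 from limma, 4 intercalated cell, all 3 distal convoluted tubule and 2 principal cell markers were lower. The thick ascending limb, podocyte and lymphocyte lists had 1 lower each. Higher were 4 urothelial markers, 2 neutrophil markers (S100a8 and S100a9), 2 red-cell markers and 1 macrophage marker. Over all features, 7.37% were higher and 10.6% lower. The summed level of the intercalated cell markers was 36.8 to 49.6 in controls and 6.96 to 24.5 in NEKO mice, that of the urothelial markers 1.17 to 3.06 and 2.53 to 6.00, and that of the neutrophil markers 0.22 to 0.53 and 0.35 to 6.67. Their part in the changes of Txnrd1, Srxn1 and Prdx6 was not tested.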

How the data were processed

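The authors deposited Agilent Feature Extraction 10.7.3.1 output for each of the 8 arrays, with a background-subtracted processed intensity, a raw median intensity and a local background for every spot. The log2 matrix that the authors also deposited holds the same quantity centred on each probe (100% of its entries fell within 0.01 of values recomputed here) and is no independent source. The normalization and the test the authors applied to the arrays are not given in the sources used here. The unpaired comparison with unequal variances that their statistics paragraph names is called the methods' t-test.

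Outlier spots, 73 to 172 of 43379 non-control spots per array, were dropped, and replicate spots of a probe were averaged. The array's 75th percentile of non-control probes was then subtracted on the log2 scale. A probe was kept if it was well above background on 4 or more arrays and had a value on 6 or more, and each gene took the kept probe with the highest mean. Accessions of 26690 probes matched RefSeq genes of GRCm38.p6, giving 13571 named genes and 6023 unnamed transcripts tested. The fit used lmFit and eBayes of limma 3.58.1 in R 4.3.3. The procedure was tested on simulated data. The exact permutation tests were two-sided.

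The labels gave every sample its group, and no sample was dropped. Which mice share a litter is not given in the sources used here. The 10 genes, the other lists and the tests were chosen with earlier results of these data known. Named in the text are all 10 genes, Keap1 and Nqo1, thiol redox genes that were called or that changed most without overlap between groups, and the 4 genes closest to Srxn1, Txnrd1 and Txnip. Other members of the lists were named after their values were seen. Alternatives were a normexp correction (offset 50, on the median intensity), quantile normalization, other filters on dim probes, the mean of the probes, leaving sex out of the model, slide in place of sex, an interaction, trend and robust eBayes, array weights, the methods' t-test, the deposited matrix, and leaving out each mouse. Leaving control 4 out of the male change of Srxn1 was added after seeing the data.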

Additional observations from a re-analysis of the deposited data

Results flagged for a closer look

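Of the 24 groups of 4 mice examined (12 genes in 2 groups), 2 held a mouse far from the other 3 by Dixon's ratio, the gap to the nearest mouse divided by the range of the group, and chance flags about 1 group in 20. In both it was control 4, a K1Cre male. For Srxn1 the ratio was 0.846, with control 4 at 2.76 and the other controls between 3.27 and 3.36. For Nqo1 it was 0.91, with control 4 at 1.24 and the others between 2.35 and 2.46. In Txnrd1 and Prdx6 control 4 lay within the range of the other controls.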

How the results depend on the processing

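The count of members called higher, 1 in the fit reported, ranged from 0 to 4 over 21 alternatives. It was 0 with no filter on dim probes, with detection required on all 8 arrays, with no sex term and with the adjusted methods' t-test, 2 in the model with an interaction averaged over the sexes, and 4 with the unadjusted methods' t-test. It ranged from 0 to 1 with 1 mouse left out, being 1 without NEKO 2 only. No alternative called a member lower. The call of Txnrd1 was lost in 11 of 21 alternatives, and Srxn1 was called in 2, the model with an interaction (adjusted p = 0.0087 from limma) and the unadjusted methods' t-test. Among the other thiol redox genes the interaction model called 1 higher and 1 lower, and the unadjusted methods' t-test 6 higher and 1 lower. All other alternatives called 0. The direction of 9 members was the same in every alternative. The dim-probe filters, no sex term, the slide block and the interaction left each member's log2 change as reported. So did trend and robust eBayes and the methods' t-test, and the deposited matrix holds the same quantity. Agreement of direction among these is no separate support. The log2 change of Prdx2, -0.05 as reported, turned to 0.0146 with quantile normalization and to 0.0102 with the mean of its probes, and ran from -0.1082 to 0.0162 (without control 1) with 1 mouse left out. The 4 pair differences kept their direction in all 12 alternatives each, and none passed an adjusted 0.05. A pair at the smallest exact permutation p cannot pass that threshold on its own, so no conclusion is drawn from this. The exact permutation p of Prdx1 minus Prdx2 was 0.143 with the mean of the kept probes, against 0.0286 as reported. The slide as a block gave the fit reported. No paired analysis was possible because the labels pair no NEKO mouse with a control and do not give the litters. The cause of these shifts was not tested. All 18 probes were well above background on every array.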
